A study of Mus musculus with 19 samples.

Results

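The genes described here encode the proteins of the cytoplasmic ribosome. They were chosen by symbol: every gene named Rpl or Rps and a number on the array annotation, measured by a probe set assigned to that gene alone, with the strongest probe set standing for the gene. The rule gave 48 genes, 26 of the large subunit (Rpl) and 22 of the small subunit (Rps), of 18193 genes with such a probe set. A further 24 ribosomal protein genes were measured only by probe sets that the annotation assigns to several genes or pseudogenes, and were used in a wider list as an alternative. Expression was measured in whole ovaries of wild-type female CD-1 mice, an outbred strain, at gestation days (gd) 11, 12, 14, 16 and 18 and at postnatal day (pnd) 2, with 3 Affymetrix arrays at each stage. The reference was 1 array of 8 pooled newborns (pnd 0.5, whole bodies, males and females). The sample labels give the gd11, gd12 and gd14 samples as pools of 3 and the later ones as not pooled, whereas the series text gives the ovaries of 1 animal per sample. Dams differed between samples, with 1 dam shared by gd11 samples 18 and 19. The tissue of gd11 samples 16 and 18 was gonad with mesonephros, and that of gd11 sample 19 was gonad.

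The ribosome joins a small subunit, which reads the messenger RNA, with a large subunit, which links amino acids. Each subunit holds ribosomal RNA and a fixed set of proteins, most of them needed in equal numbers, and their messenger RNAs are among the most abundant of growing cells. Many start with a run of pyrimidines (C and T), through which the growth-sensing mTOR pathway controls their translation. A few have a paralog elsewhere in the genome, and some of these paralogs are known mainly from germ cells or muscle. In the ovary between gd11 and pnd2, germ cells multiply, enter meiosis and are enclosed in the first follicles.

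Promoters of 42 of the 48 genes were found in the RefSeq table of build GRCm38.p6, as windows of 300 bases from 250 before to 50 after the annotated start. The start regions of 4 of the 6 genes whose courses correlated most with the median of the others are shown first, 35 bases before and 15 from the start on the gene's strand. Capitals mark runs of at least 6 C or T. They are Rpl7a (chr2:26910772-26910821, plus strand), Rplp2 (chr7:141447616-141447665, plus), Rpl6 (chr5:121204466-121204515, plus) and Rps3 (chr7:99483695-99483744, minus).
Rpl7a: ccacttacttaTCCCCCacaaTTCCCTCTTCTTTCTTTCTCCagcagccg
Rplp2: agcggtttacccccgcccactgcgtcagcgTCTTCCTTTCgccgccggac
Rpl6: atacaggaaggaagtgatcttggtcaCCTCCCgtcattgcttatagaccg
Rps3: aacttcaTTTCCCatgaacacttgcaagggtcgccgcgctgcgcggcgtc
The next 4 are paralogs whose course left the common one: Rpl39l (chr16:10170193-10170242, plus), Rpl7l1 (chr17:46782642-46782691, minus), Rpl22l1 (chr3:28805473-28805522, plus) and Rps27l (chr9:66946051-66946100, plus).
Rpl39l: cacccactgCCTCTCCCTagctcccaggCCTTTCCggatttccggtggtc
Rpl7l1: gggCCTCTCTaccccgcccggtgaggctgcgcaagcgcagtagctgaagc
Rpl22l1: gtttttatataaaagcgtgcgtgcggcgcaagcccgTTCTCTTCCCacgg
Rps27l: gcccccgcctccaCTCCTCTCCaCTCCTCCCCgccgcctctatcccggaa
A run of at least 6 C or T that reached within 5 bases of the annotated start lay in 23 of the 42 genes (54.8%) and in 24.0% of all 27025 genes with a promoter in the table. Among the 8 shown it lay in Rpl7a, Rplp2, Rpl6, Rpl39l, Rpl22l1 and Rps27l, and Rps3 and Rpl7l1 had no such run there. In Rpl6, Rpl39l and Rps27l the run ended before the annotated start, and so lay outside the annotated transcript. Rps4x, another of the 6 genes closest to the others, had no such run.

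Letter matches in the 300-base windows were searched on both strands. CCGGAAG, letters that ETS factors bind, was in 20 of 42 genes (47.6%) against 9.9% of all genes, and TCTCGCGA was in 9 of 42 (21.4%) against 1.1%. AAGATGGC, bound by YY1 and able to overlap the end of CCGGAAG, was in 9.5% against 3.2%, and CTTTCC, itself a short run of pyrimidines, in 21 of 42 against 29.3%. The E-box CACGTG was in 9.5% against 8.1%, and GCGCATGC, bound by NRF1, in 4.8% against 3.0%. These shares describe the windows, without matching for base composition. TCTCGCGA is shown in capitals in 30 bases of 3 genes, at chr2:26910744-26910773 in Rpl7a, chr7:24884554-24884583 in Rps19 and chr4:86857400-86857429 in Rps6, each on the gene's strand.
Rpl7a: agggcgcctgcTCTCGCGAtatctgcggcc
Rps19: ggtttagccgcTCTCGCGAgcactccgaaa
Rps6: ccgccggctgtTCTCGCGAgaacttagagc

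Signals are the authors' intensities on a linear scale, and every array has the same trimmed mean of 500. Differences are log2 values of (signal + 31) ± the SE of a limma fit with 3 arrays per stage, and a gene is called where the Benjamini-Hochberg adjusted p over all tested probe sets is under 0.05. Testing required a stage mean over 116.05 (the median ovary value) in 1 stage or more, and 46 of the 48 members and 12566 genes in all were tested. The gd16 arrays stood apart by their highest signals (67575 to 90180, against 40790 to 54587 on the other ovary arrays). Their mean correlation within the stage was 0.954 to 0.958, and that of gd11 sample 16 was 0.957. This sample also had a summed signal of 5 neuron markers of 25525, against 1626 and 1977 in the other gd11 samples. As a measure of RNA quality, the 3'/5' ratio of Gapdh ran from 2.99 to 3.28 at gd11 and from 5.07 to 5.41 at pnd2. Its stage means rose with every stage (3.16, 3.93, 4.45, 4.83, 5.05 and 5.28), and the highest single value was 5.59 on gd16 sample 7. The actin ratio had its highest stage mean at gd16 (3.01), against 1.94 at gd11 and 2.71 at pnd2. In bulk tissue, fewer cells of a type and less RNA per cell cannot be told apart.

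The ribosomal protein genes were strong and moved little. Of the 46 tested, 28 had a mean signal over 10000. The median range between the highest and lowest stage mean was 0.57 (log2) over the members and 0.86 over all genes tested, and the range exceeded 1 in 8 members and in 40.3% of all genes. The test over the 6 stages called 35 of 46 members (76.1%), where it called 68.1% of all genes tested. The members' share was thus near that of all genes.

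As deposited, their common course was higher from gd12 to gd16 than at gd11, and lower again at gd18 and pnd2. Taken per array as the median over the 46 genes of each gene's deviation from its own mean, it was -0.10 to -0.03 at gd11, 0.06 to 0.12 at gd12, -0.02 to 0.26 at gd14 and 0.05 to 0.17 at gd16. It was -0.15 to -0.07 at gd18 and -0.21 to -0.12 at pnd2, with a within-stage SD of 0.07. All 3 gd18 and all 3 pnd2 arrays thus lay below all arrays of gd12 and gd14 as well as of gd16, the stage that stood apart. Markers of other cells moved over the same stages. The summed signal of 5 erythroid markers was between 49268 and 57204 in the gd11 arrays, between 42837 and 48885 in those of gd12 and between 33319 and 36123 in those of gd14. It was between 5093 and 8622 at gd16, then 783 to 3525 at gd18 and 146 to 262 in the pnd2 arrays. The 5 erythroid markers did not move as 1: at gd16 against gd14, 2 were called higher and 2 lower. At gd18 against gd16, 3 were called lower and 0 higher. The sum of 6 supporting and granulosa cell markers was between 4220 and 5325 in the gd11 arrays, between 8102 and 20265 in those of gd12 and between 16909 and 19189 in those of gd14. It was highest at gd16, between 24734 and 27655, and lay between 18387 and 22287 at gd18 and between 17132 and 22780 in the pnd2 arrays. Of these 6 markers, 4 were called higher at gd12 against gd11 and 3 at gd16 against gd14. The part of either cell type in the course was not tested. The stage mean was highest at gd16 in 23 genes, at gd14 in 10 and at gd12 in 8, and lowest at pnd2 in 24, at gd11 in 10 and at gd18 in 8.

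**Figure D1:**
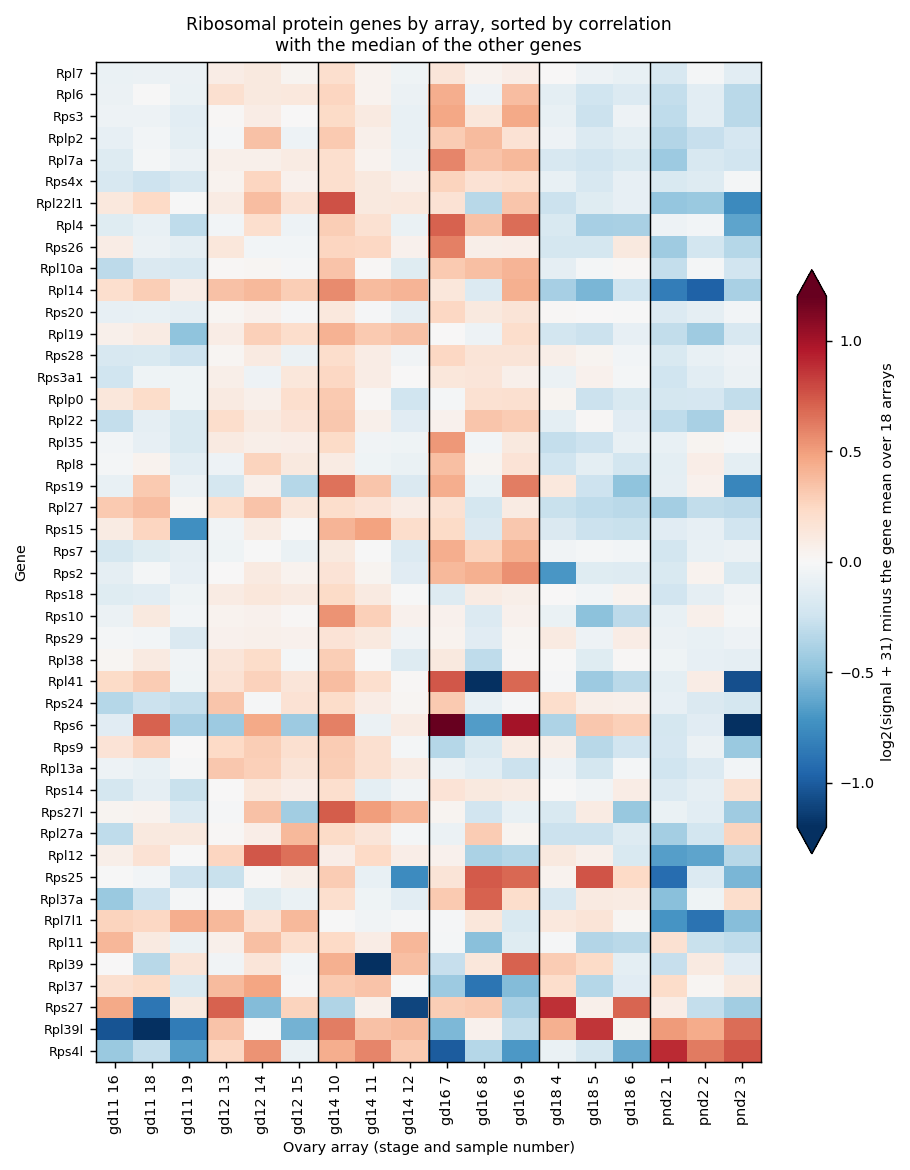
Log2 deviation of each of the 46 tested genes (rows) from its mean over the 18 ovary arrays (columns, by stage and sample number), sorted by the correlation of a gene with the median of the others. Most rows are red between gd12 and gd16 and blue at gd18 and pnd2, and the lowest rows, Rpl39l and Rps4l, are red at pnd2.

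The height at gd16 rested on the scaling. With arrays scaled to equal medians in place of equal trimmed means, the median change of the members from gd14 to gd16 was -0.15, and with quantile normalization -0.08, against 0.04 as deposited. Median scaling moved the median of all genes as well, from 0.09 to -0.08 at this step, from 0.003 to -0.11 between gd11 and gd12, from 0.04 to -0.10 between gd11 and pnd2 and from -0.06 to 0.08 between gd16 and pnd2. Set against the median of all genes, the members changed from gd16 to gd18 by -0.21 as deposited, -0.21 with median scaling and -0.07 with quantile normalization. From gd11 to gd12 the same difference was 0.15, 0.14 and 0.12. The order of the stages in the common course also moved. With median scaling its stage mean was 0.08 at gd11, 0.11 at gd12 and -0.03 at gd16, so that gd16 lay below gd11. With quantile normalization gd16 sample 8 (-0.05) lay below all gd18 arrays (-0.03 to -0.02).

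**Figure D2:**
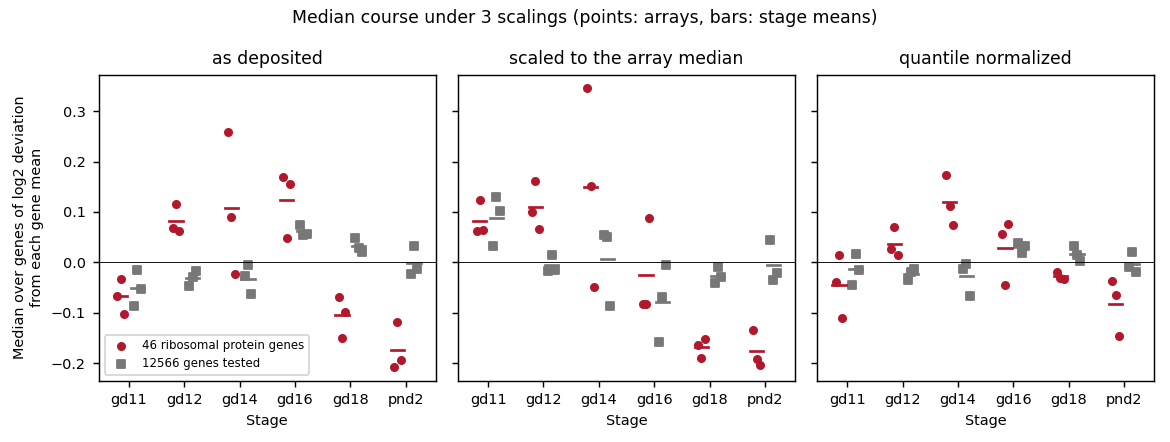
Median deviation over the 46 ribosomal protein genes (circles) and over the 12566 genes tested (squares) in each array by stage, as deposited, after scaling to the array median and after quantile normalization; bars are stage means. In each panel the stage mean of the ribosomal protein genes is above that of all genes at gd12 and gd14 and below it at gd18 and pnd2.

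Over the 18 arrays, the correlation of a member with the median of the other tested members had a median of 0.64, from -0.22 to 0.94. It was at least 0.5 in 35 members and negative in 4 (Rpl39l, Rps4l, Rps27 and Rpl37). These values describe arrays that share scaling and stage. The closest was Rpl7 (0.94), followed by Rpl6 (0.92), Rps3 (0.89), Rplp2 and Rpl7a (0.85 each) and Rps4x (0.82).

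Rpl6, a large-subunit protein, showed the course in single arrays. Its signal was 22176, 23198 and 22105 at gd11 and 26593, 25325 and 25543 at gd12. At gd14 it was 27911, 24081 and 22269, and at gd16 31530, 22435 and 30237. It was then 21528, 19833 and 20824 at gd18 and 19122, 21319 and 18622 at pnd2, so that every gd18 and pnd2 array lay below every gd12 and gd14 array. The fall from gd16 to gd18 was -0.42 ± 0.11 (adjusted p = 0.0225).

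Rps3, which lines the entry of the messenger RNA channel, had signals of 29679, 29808 and 28387 at gd11, 31389, 32951 and 31156 at gd12 and 36321, 33557 and 29149 at gd14. They were 42829, 34172 and 42492 at gd16, above every other array except 1 of gd14, and 29156, 26029 and 29825 at gd18 and 25107, 28470 and 24886 at pnd2. From gd16 to gd18 Rps3 fell by 0.49 ± 0.10 (adjusted p = 0.00454), a call that was lost with quantile normalization (-0.10, adjusted p = 0.421) and with the mean of its probe sets (-0.39, adjusted p = 0.0966). Rpl7 moved less: its stage means had a range of 0.20, and the test over 6 stages did not call it (adjusted p = 0.0785).

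Rplp2, a protein of the acidic stalk that recruits translation factors, had signals between 13396 and 22170 and fell from gd16 to gd18 (-0.40 ± 0.11, adjusted p = 0.0318). Rpl7a ran from 18428 at pnd2 to 37374 at gd16. Its 3 gd16 arrays (37374, 31606 and 32636) were the highest of all 18. Rps4x, the X-linked small-subunit gene, had 27222, 26198 and 27184 at gd11 and 32051, 37118 and 32184 at gd12, with no overlap. Its rise was 0.33 ± 0.07 (adjusted p = 0.0165), and 0.20 and not called with median scaling or quantile normalization.

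From gd11 to gd12, 5 members were called higher (Rpl39l, Rps4l, Rps24, Rps4x and Rpl13a) and none lower, where 3.30% of all genes tested were called higher and 1.42% lower. The median change was 0.15 over the members and 0.003 over all genes, and 41 of 46 members had a positive difference. The arrays of the 2 stages did not overlap in 21 of 46 members, and in 24.6% of all genes tested. Among the 5, Rps24, a small-subunit protein needed for processing of ribosomal RNA, rose by 0.46 ± 0.11 (adjusted p = 0.0233) and Rpl13a by 0.31 ± 0.08 (adjusted p = 0.0380). The count was small and moved with single samples: 0 without gd11 sample 18, 1 without gd12 sample 13 or 14, 2 without gd11 sample 16 or 19, 3 without gd14 sample 11, and 1 with gd11 samples 18 and 19, which shared a dam, averaged. Median scaling left 1 member called higher and quantile normalization 2.

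From gd12 to gd14 the median change of the members was -0.002. Only Rps27l was called (higher, 0.57 ± 0.18, adjusted p = 0.0341), where 11.6% of all genes tested were called higher and 8.01% lower. The call was lost without gd14 sample 10 or 11 and without gd12 sample 13 or 15, with changes of 0.48, 0.59, 0.58 and 0.37. Without gd12 sample 13, 1 member was called lower.

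From gd14 to gd16, 4 of 46 members were called higher and 6 lower, shares near those of all genes tested. Rpl4, which reaches into the exit tunnel of the new protein, Rps2, Rps7 and Rpl7a were called higher, by 0.45 ± 0.14 (adjusted p = 0.0374), 0.44 ± 0.12 (0.0155), 0.39 ± 0.08 (0.00182) and 0.38 ± 0.09 (0.00573). Rps4l, Rpl37, Rpl39l, Rps27l, Rpl11 and Rpl13a were called lower, by -1.12, -0.83, -0.71, -0.63, -0.46 and -0.35. Rpl11 is known as a sensor of faulty ribosome assembly through its binding of MDM2. Of all genes tested, 11.4% were called higher and 9.77% lower. None of the 4 rises was called with median scaling, where 12 members were called lower. None was called with quantile normalization either (0.10 to 0.18), where 9 members were called lower and 1 other member higher. The counts were 8 higher and 3 lower without gd14 sample 10, and 2 higher without gd14 sample 12 or gd16 sample 9.

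The direction at gd16 went with the strength of the probe set. The 28 members with a mean signal over 10000 had a median change of 0.09, with 4 called higher and 1 lower, and the 18 tested members at or below it had -0.27, with 5 called lower. All 289 genes tested with a mean signal over 10000 had a median of 0.02, with 53 called higher and 45 lower. The share of strong members called higher was thus no larger than that of strong genes in general. Among the 20 members with several tested probe sets, 11 had sets that differed in sign at this step. Of their 67 probe sets, the 16 over 20000 had a median change of 0.11 (5 called higher, 1 lower) and the other 51 had -0.24 (1 higher, 14 lower). Rpl13a fell by 0.35 on the probe set used and by 1.06 and 1.07 on 2 others, with mean signals of 8164 and 4587. Rpl22 changed by 0.15 on the set used and by -1.67 on a set with a mean of 4204. The probe sets differ in sequence as well as strength, and the part of either in these differences was not tested.

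**Figure D3:**
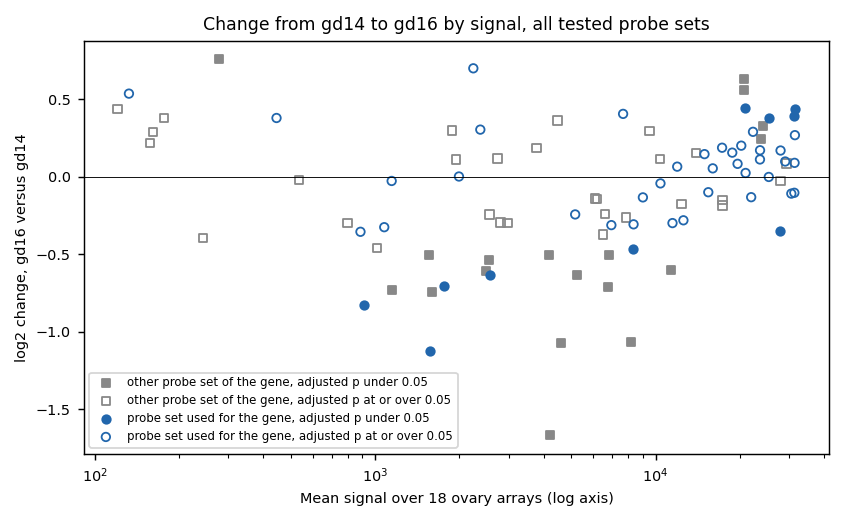
Log2 change from gd14 to gd16 (vertical) against mean signal over the 18 ovary arrays (horizontal, log axis) for the 93 tested probe sets of the members; circles are the sets used and squares the other sets, filled where the adjusted p is under 0.05. All called rises but 1, a weak set of Rps9 (mean signal 279, change 0.76), lie above 20000, and most called falls lie below 10000.

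From gd16 to gd18, 11 members were called lower and none higher, where 3.25% of all genes tested were called lower and 4.94% higher. They were Rpl4 (-0.90), Rps2 (-0.79), Rpl7a (-0.64), Rps3 (-0.49), Rpl6 (-0.42), Rpl35 and Rps7 (-0.41 each), Rpl10a and Rplp2 (-0.40 each), Rpl8 (-0.38) and Rps4x (-0.34). The median change was -0.25 over the members and -0.03 over all genes, 36 of 46 differences were negative, and the arrays did not overlap in 23 of 46 members and in 26.3% of all genes tested. All 11 had a mean signal over 10000, and of the 289 genes above that signal 60 were called lower, with a median of -0.09. Rps2, a small-subunit protein near the messenger RNA channel, had signals of 40632, 41765 and 45360 at gd16 and 19053, 27960 and 27884 at gd18. Rpl4 had 33252, 25813 and 32261 at gd16 and 17845, 15431 and 15434 at gd18. Both genes thus fell without overlap, with adjusted p = 0.000577 for Rps2 and 0.000973 for Rpl4. The count was 5 with median scaling, 3 with quantile normalization (with 3 called higher), and 7 without gd18 sample 4 or 5 or without gd16 sample 7. A single member was called higher without gd18 sample 6, gd16 sample 8 or gd12 sample 15.

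From gd18 to pnd2, 3 members were called lower (Rps25, Rpl7l1 and Rpl12) and Rps4l was called higher, where 6.85% of all genes tested were called lower and 8.48% higher. The median change was -0.10. Without pnd2 sample 1 or gd18 sample 5, 1 member was called lower.

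Over the whole period, from gd11 to pnd2, 2 members were called higher (Rpl39l and Rps4l) and 7 lower, where 26.3% and 20.6% of all genes tested were called. The 7 were Rpl7l1 (-1.02), Rpl14 (-0.93), Rpl22l1 (-0.68), Rpl12 (-0.62), Rpl27 (-0.58), Rps9 (-0.39) and Rplp0 (-0.34), the last the core protein of the stalk. The share of members called was below that of all genes. With median scaling 14 were called lower, and with quantile normalization 6 were called higher. Leaving out any array left 5 to 8 called lower and 2 higher. The comparison of pnd2 with gd16, the ends of the late fall, was added after the data were seen: 24 members were called lower and 3 higher, where 17.2% and 16.1% of all genes were called. That count fell to 12 with median scaling and 13 with quantile normalization.

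Departure of a single gene was tested after the common course had been subtracted from every array. It was called for 24 of 46 members (52.2%), 12 of each subunit, where 71.8% of all genes tested departed. The course was the median of these same 46 members, so the shares are not on equal terms. In 12 of the 24 the stage means of the departure spanned less than 0.5. The departure was larger in weaker genes: the 12 members with a mean signal under 5000 had a median span of 0.91, with 8 called, and the other 34 had 0.34, with 16 called and a largest span of 0.67. The largest called spans were those of Rpl39l (1.74, adjusted p = 3.6e-05), Rps4l (1.73), Rpl37 (1.02), Rpl7l1 (0.91), Rpl14 (0.90), Rpl12 (0.84), Rps25 (0.82) and Rpl4 (0.67).

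**Figure D4:**
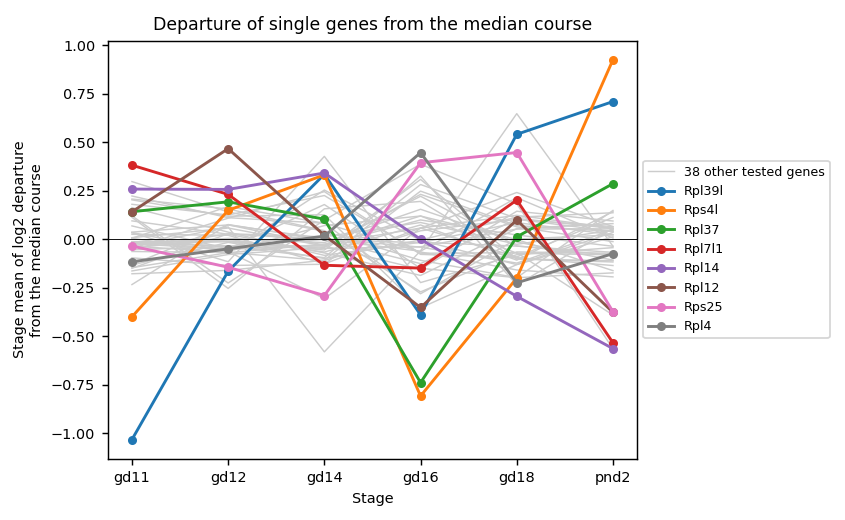
Stage means of the log2 departure from the common course for the 8 genes with the largest called span (coloured) and the other 38 tested genes (grey). Rpl39l and Rps4l end at 0.71 and 0.93 at pnd2, and Rpl14 and Rpl7l1 end at -0.56 and -0.53.

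Rpl39l and Rps4l, 2 autosomal paralogs of X-linked genes, departed most. Rpl39l lies on chromosome 16 and its X-linked counterpart Rpl39 encodes a small protein of the exit tunnel, while Rpl39l is known from testicular germ cells. Signals of Rpl39l were 774, 590 and 889 at gd11, 2056, 1611 and 1079 at gd12 and 2490, 2066 and 2114 at gd14. They were 1102, 1678 and 1314 at gd16, 2185, 2957 and 1656 at gd18 and 2313, 2212 and 2591 at pnd2. All gd11 arrays lay below all others, and the gd16 arrays lay below those of gd14 and pnd2. Rpl39l rose by 1.02 ± 0.23 from gd11 to gd12 (adjusted p = 0.0153), fell by 0.71 ± 0.23 to gd16 (0.0368) and stood 1.64 ± 0.23 higher at pnd2 than at gd11 (1.3e-05). The first of these calls was lost without gd12 sample 13 or 14 or gd11 sample 18 (0.81, 0.98 and 0.86). The fall to gd16 was lost without any 1 of gd16 samples 7 and 9 and the 3 gd14 samples (-0.76 to -0.57). The change to pnd2 kept its call with every array left out (1.48 to 1.76).

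Rps4l, on chromosome 6, had signals of 1065, 1194 and 914 at gd11, 1736, 2140 and 1379 at gd12 and 1986, 2205 and 1820 at gd14. They were 716, 1143 and 892 at gd16, 1377, 1257 and 948 at gd18 and 2741, 2261 and 2485 at pnd2. The pnd2 arrays were above all others, and those of gd16 below all of gd12 and gd14. Rps4l rose by 0.70 ± 0.19 to gd12 (adjusted p = 0.0419), fell by 1.12 ± 0.19 from gd14 to gd16 (0.000535) and rose by 1.06 ± 0.19 from gd18 to pnd2 (0.00102). At pnd2 it was 1.22 ± 0.19 above gd11 (4.1e-05). The rise to gd12 was lost with median scaling (0.58) and without any single gd11 array, among others, and the later calls held with each array left out. Its X-linked counterpart Rps4x had signals between 26198 and 37443, was 0.09 ± 0.07 higher at pnd2 than at gd11 (adjusted p = 0.348). Its departure was not called over the 6 stages (adjusted p = 0.0767), but was called at pnd2 against gd11 (0.20, adjusted p = 0.0329).

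Germ cell markers also changed over these stages, at some steps with these 2 genes and at others not. The summed signal of 7 markers (Dazl, Ddx4, Sycp3, Dppa5a, Pou5f1, Stra8 and Figla) was between 3206 and 3688 on the gd11 arrays, between 9456 and 22678 on those of gd12 and between 38511 and 46033 on those of gd14. It was lowest after that at gd16, between 11666 and 15138, and lay between 20568 and 30980 at gd18 and between 23423 and 30430 in the pnd2 samples. Of the 7, 5 were called higher at gd12 against gd11 and 5 lower at gd16 against gd14. Single markers were near the floor on some arrays, with a lowest signal of 3.02 on gd12 sample 15 and 6.63 on gd11 sample 18. At gd14 against gd12, 5 of the 7 were called higher and 1 lower. Neither gene was called at that step, though both differences were positive (Rpl39l 0.53 ± 0.23, adjusted p = 0.129, and Rps4l 0.21). At pnd2 against gd18 the median change of the markers was 0.007, with 2 called higher, where Rpl39l changed by 0.10 and Rps4l by 1.06. The sum was highest at gd14, and both genes had their highest stage mean at pnd2. For Rpl39l that mean (2372) was close to those of gd18 (2266) and gd14 (2224). The part of the germ cells in the 2 courses was not tested.

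**Figure D5:**
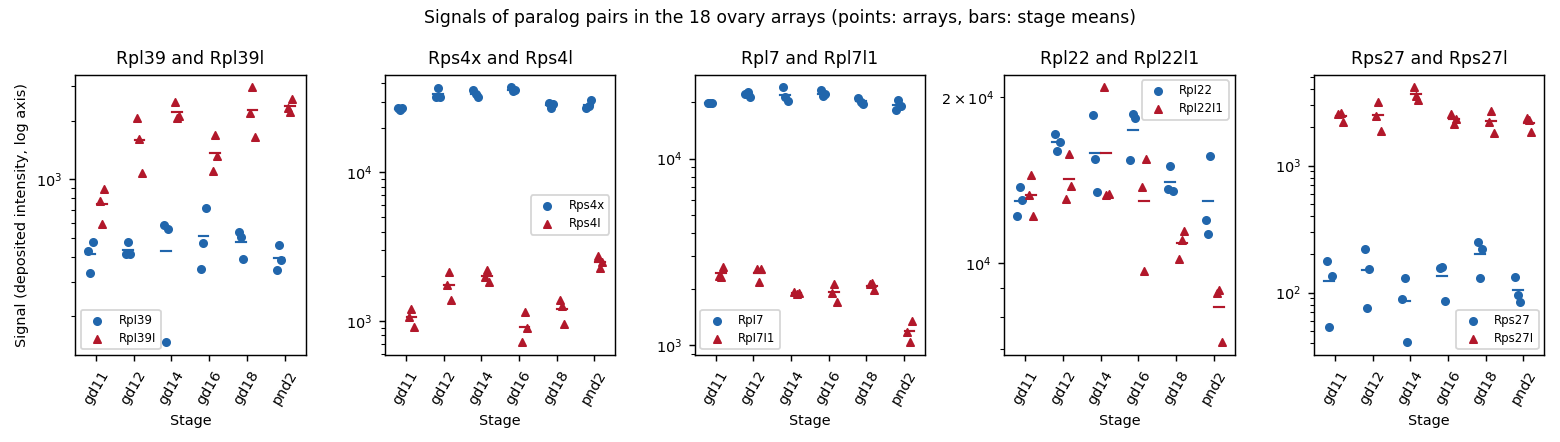
Signals (log axis) of 5 paralog pairs in the 18 ovary arrays by stage; points are arrays and bars stage means, circles mark the gene of the standard set and triangles its paralog. Rpl39l and Rps4l change over the stages while Rps4x stays between 26198 and 37443, and Rpl7l1 and Rpl22l1 are lowest at pnd2.

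Rpl39 itself was weak on its probe set, at 147 to 717, and was not called by the test over 6 stages (adjusted p = 0.876). As different probe sets, the levels of Rpl39l and Rpl39 cannot be set against each other, but the log2 ratio, centred on its mean, was -1.07 to -0.99 on the gd11 arrays and 0.33 to 0.81 on the pnd2 arrays. For Rps4l over Rps4x it was -0.46 to -0.03 at gd11, -1.26 to -0.52 at gd16 and 0.78 to 1.08 at pnd2.

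Rpl7l1 and Rpl22l1, paralogs of Rpl7 and Rpl22, were lower at pnd2. Rpl7l1 had signals of 2336, 2312 and 2635 at gd11, between 1707 and 2551 from gd12 to gd18, and 1173, 1034 and 1350 at pnd2, below every other array. It fell by 0.80 ± 0.13 from gd18 to pnd2 (adjusted p = 0.000335). Its other probe sets had correlations of 0.46 and -0.30 with the set used, and neither was called over the 6 stages (adjusted p = 0.239 and 0.458). The first, with a mean signal of 1880, changed by -0.14 from gd18 to pnd2 and by -0.27 from gd11 to pnd2. The second, with a mean of only 158, changed by 1.78 and 0.50. With the mean of all Rpl7l1 probe sets the change from gd18 to pnd2 was 0.28 (adjusted p = 0.543). That from gd11 to pnd2 was -0.27 (0.454), and the departure was not called (0.312).

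Rpl22l1, whose level is known to be held down by Rpl22, had signals of 13299, 14408 and 12162 at gd11, 20802, 13285 and 13342 at gd14 and 8843, 8950 and 7185 at pnd2. All pnd2 arrays lay below all others. It was 0.68 ± 0.17 lower at pnd2 than at gd11 (adjusted p = 0.00333), a call that held with each array left out (-0.74 to -0.57). Rpl22 had 12158, 13721 and 12985 at gd11 and 11969, 11300 and 15641 at pnd2, a change of -0.01 ± 0.12 (adjusted p = 0.954). The centred log2 ratio of Rpl22l1 to Rpl22 was 0.18 to 0.40 at gd11 and -0.84 to -0.06 at pnd2, without overlap. This ratio rests on the strongest probe set of Rpl22. Its other sets, with mean signals of 6074 and 4204, changed by -0.50 and 0.02 from gd11 to pnd2. They correlated with the set used by only 0.20 and 0.16.

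Rps27l, known as a target of p53, was highest at gd14. Its signals there were 4140, 3537 and 3304, above every array of the other stages, where they ran from 1812 to 3184. All 3 of its probe sets shared this course, with correlations of 0.93 and 0.96 with the set used and changes of -0.61, -0.63 and -0.75 from gd14 to gd16. The departure (adjusted p = 0.0330) was no longer called without gd16 sample 8 or 9 or without any single gd14 array (adjusted p 0.0511 to 0.102). Rps27 was measured by a set with a mean signal of 133, from 40.4 to 250, and was not called (adjusted p = 0.225). Rpl3l, the striated muscle paralog of Rpl3, was not tested, with 5.51 to 76.0 in the ovary and 577 in the newborn reference. Rps16, with 0.94 to 18.5, was the other member below the filter.

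Rpl14, Rpl12, Rps25 and Rpl37 were each measured by 1 probe set assigned to the gene alone. Their mean signals were 1078, 887, 2240 and 914, where 28 members had over 10000. Whether these weak sets stand for the main transcript of each gene was not tested. Of the members without a paralog here, Rpl14 fell late. It had signals of 1186, 1273 and 1100 at gd11, 1542, 1351 and 1380 at gd14, 774, 694 and 870 at gd18 and 567, 509 and 776 at pnd2. At gd18 and pnd2 no array reached the lowest of gd11 to gd16 (913). It was 0.93 ± 0.17 lower at pnd2 than at gd11 (adjusted p = 0.000182), and kept the call with each array left out.

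Rpl12, at the base of the stalk, was highest at gd12, with 1031, 1460 and 1371, and lowest at pnd2, with 531, 540 and 673. It was 0.62 ± 0.16 lower at pnd2 than at gd11 (adjusted p = 0.00443). The fall from gd18 to pnd2 (-0.54 ± 0.16, adjusted p = 0.0328) was lost with median scaling (-0.49, adjusted p = 0.0542) and without pnd2 sample 1 or 2 or gd18 sample 4 or 5 (-0.51 to -0.48).

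Rps25, needed for initiation at some internal entry sites, had 2374, 3573 and 3452 at gd16, 2203, 3630 and 2524 at gd18 and 1121, 1900 and 1451 at pnd2. It fell by 0.89 ± 0.25 from gd18 to pnd2 (adjusted p = 0.0218), and without pnd2 sample 1 or gd18 sample 5 this was not called (-0.70 and -0.68). Rpl37 was lowest at gd16, with 649, 471 and 612, against 1109, 1134 and 889 at gd14 and 1042, 903 and 965 at pnd2. Its fall to gd16 was -0.83 ± 0.18 (adjusted p = 0.00411) and held with each array left out (-0.93 to -0.69). Rps25 and Rpl37 thus stood on opposite sides of the common course at gd16, with departures of 0.39 and -0.74.

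The subunits were also summarised apart. From gd16 to gd18 the median was -0.31 over 25 large-subunit genes, with 7 called lower, and -0.17 over 21 small-subunit genes, with 4 called lower. Over all genes tested it was -0.03, with 3.25% called lower. From gd11 to gd12 the medians were 0.17 and 0.13, and from gd11 to pnd2 -0.12 and -0.03. The difference between subunits was not tested.

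Other genes of the ribosome and of translation were counted beside these. Rpsa, a small-subunit protein named otherwise, fell by 0.56 from gd16 to gd18 (33483 to 22688, adjusted p = 0.00108). Of 18 translation factors, 5 were called lower and 1 higher at that step, with a median of -0.33, among them Eef1a1, which brings aminoacyl-tRNA to the ribosome (-0.71, 60705 to 37050), and Eif3e (-0.59). Of 76 mitochondrial ribosomal protein genes none was called lower and 1 higher (Mrpl9, 0.74), with a median of -0.11. Of 36 ribosome assembly genes 2 were called in each direction, with a median of 0.05: Nop10 (-0.67) and Utp20 (-0.53) lower, Rrs1 (0.68) and Ncl (0.48), the gene of nucleolin, higher. Of all genes tested, 3.25% were called lower and 4.94% higher from gd16 to gd18, with a median of -0.03. The mitochondrial and assembly counts were near these shares.

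From gd12 to gd14 the ribosome assembly genes had a median of -0.25, with 6 of 36 called lower and 1 higher, and the mitochondrial genes 0.12, with 9 of 76 called higher and 2 lower. All genes tested had 11.6% called higher and 8.01% lower at this step. From gd11 to pnd2, 16 mitochondrial genes were called higher and 9 lower, and 3 assembly genes higher and 10 lower, beside 26.3% higher and 20.6% lower of all genes. Over 18 growth control genes the median change from gd11 to gd12 was -0.002. Of these, 2 were called higher and none lower, beside 3.30% higher and 1.42% lower of all genes tested. One of the 2, Mycn, a MYC family factor, rose from gd11 to gd12 (0.61, 2737 to 4139, adjusted p = 0.0412). It then fell to gd14 (-0.67, adjusted p = 0.00874) and to gd16 (-1.21, 2584 to 1094, adjusted p = 8.9e-05).

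In the whole newborn reference, which has no replicate, the members were about as strong as in the pnd2 ovary. The ratio of the pnd2 mean to the reference signal had a median of 0.98 over the 46 members, above 1 in 18 and below 1 in 28, and 1.18 over all genes tested. The filter asked for signal in the ovary only, so genes strong in the newborn alone were left out. The 1.18 is therefore tilted towards the ovary and is no neutral mark for the members. Among the members the ratio was highest for Rps4l (5.43), Rpl12 (5.20) and Rpl39l (3.66), and lowest for Rps6 (0.52). Rps4l had 459 in the reference and Rpl39l 649, below every pnd2 ovary array of these genes. Rpl12 had 112 there, below the level that the filter asked for in the ovary. Its ratio thus rests on a weak reference value.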

How the data were processed

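The authors deposited linear intensities, 1 per probe set and array. The submitters' processing notes name GCOS; its version and settings were not given in the sources used here. The labels state 2 rounds of amplification. Checked on the files, the 2%-trimmed mean of every array is 500, so a level is relative to the rest of its array. Arrays have no read depth, and 3 arrays per stage limit the precision.

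Values of the 18 ovary arrays were taken to log2(signal + 31), where 31 is their 25th percentile, which understates changes of weak genes. Probe sets with a stage mean above 116.05 (26431) were fitted with limma 3.58.1 (R 4.3.3, with the package data.table at version 1.17.8). The model had a term for each stage, a mean-variance trend and 12 residual degrees of freedom. Tests were two-sided and adjusted by Benjamini-Hochberg over all these probe sets within a comparison. Genes were named from the platform annotation (34945 probe sets with 1 gene, 932 with several, 9160 with none; 64 control sets left out). For the departure test, the median over the 46 tested members of the log2 deviation was subtracted from each array before the same fit. The fit was tested on simulated data.

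Genes named are the 4 largest called rises and falls without overlap per comparison, the paralog pairs, the 8 largest called departures, the 6 closest to the common course, and of other lists up to 2 called genes per direction; others were named after their values were seen. The members, gene lists and tests were chosen with earlier results of these data known. Of the 48 probe sets used, 13 end in _x_at, 2 in _s_at and 18 in _a_at, suffixes of sets that may match several transcripts, so near-identical copies, pseudogenes included, can share a signal.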

Additional observations from a re-analysis of the deposited data

How the results depend on the processing

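No paired analysis was possible because every sample number is used at 1 stage only. With median scaling, 1 member was called higher from gd11 to gd12 (median change 0.029), 0 higher and 12 lower from gd14 to gd16 (median -0.152), 5 lower from gd16 to gd18 (-0.160), 14 lower from gd11 to pnd2 (-0.220) and 12 lower from gd16 to pnd2 (-0.167). With quantile normalization, 2 were called higher from gd11 to gd12, 1 higher from gd14 to gd16 (median -0.083), 3 higher and 3 lower from gd16 to gd18 (-0.081), 6 higher from gd11 to pnd2, and 6 higher and 13 lower from gd16 to pnd2 (-0.155). Without a filter, with more probe sets tested, 1 was called higher from gd11 to gd12, 0 from gd12 to gd14, and 6 lower from gd16 to gd18; with the filter at the 75th percentile, 7 were called higher from gd14 to gd16 and 1 from gd16 to gd18. A fit to only the arrays compared, with fewer samples, called 0 higher from gd11 to gd12, 0 from gd12 to gd14 and 2 from gd14 to gd16, and 6 lower from gd16 to gd18 and 15 from gd16 to pnd2. With gd11 samples 18 and 19 averaged, 1 was called higher from gd11 to gd12. With the mean of a gene's probe sets the median from gd11 to pnd2 was -0.160, and Rpl7l1 reversed from gd18 to pnd2 (0.281). With the 24 genes of multi-gene probe sets added, a list chosen after the data were seen, 12 were called higher from gd14 to gd16, 22 lower from gd16 to gd18, 39 lower from gd16 to pnd2, 58 over the 6 stages and 38 by the departure test. With single arrays left out, counts ran from 0 to 5 higher (gd11 to gd12), 0 to 1 higher and 0 to 1 lower (gd12 to gd14), 2 to 8 higher and 3 to 7 lower (gd14 to gd16), 0 to 1 higher and 7 to 13 lower (gd16 to gd18) and 1 to 3 lower (gd18 to pnd2). The median ran from -0.085 to 0.052 from gd12 to gd14 and from -0.040 to 0.098 from gd14 to gd16. The test over 6 stages then called 30 to 36 members and the departure test 21 to 26. With a pseudocount of 8 or of the median, counts and medians stayed within 1.5 times or the spread between arrays. The cause of these differences was not tested where none is named. For single named genes, 943 of 1026 values kept their direction and side of the threshold, and 82 kept the direction and lost the call.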
